A study of Mus musculus with 2 samples.

Results

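Lysosomes break down protein with the cathepsins, a set of proteases that work in acid. The 10 genes described here are Ctsd, an aspartic cathepsin, Ctsb, Ctsl and Ctss, cysteine cathepsins that cut inside proteins, Ctsc, Ctsh and Ctsz, cysteine cathepsins that remove residues from protein ends, Cd63 and Lamp1, proteins of the lysosomal membrane, and Grn, which encodes progranulin. They were chosen by name, as 10 of the 31053 genes counted in both libraries, and all 10 were found. On GRCm38 (GENCODE M21) they lie on 9 chromosomes, Ctsc (chr7:88278085-88310888, plus strand) and Ctsd (chr7:142375911-142388038, minus strand) on the same one. Cathepsins are made as inactive precursors, reach the lysosome through the secretory pathway and are activated there. In microglia and macrophages they digest engulfed material. In antigen-presenting cells they also trim the invariant chain and produce peptides for class II molecules, and in cytotoxic lymphocytes cathepsin C activates granule proteases.

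The 2 libraries hold immune cells sorted for a high CD45 level out of the dissected tumour region of C57BL/6 mouse brain, 20 days after GL261 cells, a mouse glioma line of the same strain, had been placed in the brain. In the metformin group the mice drank water that held metformin, a drug given for type 2 diabetes, and in the control group DW control water. Each group is 1 library of the 10x Genomics 3' v3 kit. The labels give no number of mice per library, no sex, age or dose and no sort gates, and the animals of a library cannot be told apart. The question the design puts is whether metformin in the water alters the infiltrating immune cells.

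The metformin library held 5473 barcodes and 47142356 UMIs (unique molecular identifiers, each counted as 1 captured RNA molecule), against 6174 barcodes and 49651404 UMIs in the control library. After filters and doublet removal, 4568 metformin cells with a median of 7929.5 UMIs and 5368 control cells with a median of 7287.5 UMIs were kept. The libraries shared 9 barcode sequences. Cells were clustered without the lysosomal genes, and clusters were named from marker genes or by their leading genes, so the classes may differ from those of the study. The titles speak of infiltrating lymphocytes, but both libraries also held myeloid classes: 5 microglia-like states, macrophage-like, monocyte-like and dendritic-like cells. The word like is left out from here on. A level is given as CPM, the UMIs of a gene per 1000000 UMIs of its class in 1 library. With 1 library per group there is no replicate and no test, cells are not replicates, and every interval is at 95% and covers counting error only, not the spread between cells, animals or sorts.

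All 10 genes had their highest level in a microglia or macrophage class in both libraries, among the 17 classes for which neither library had fewer than 50 cells. Together they made up 3.52% of the UMIs of C4b/Ccl12 microglia in the metformin library and 3.17% in the control library. In microglia high in P2ry12, the purinergic receptor of resting microglia, the shares were 2.44% in metformin and 2.48% in control. In macrophages that express Arg1, which encodes arginase, they were 1.53% in metformin and 1.47% in control, and in conventional dendritic cells 0.363% in metformin and 0.418% in control. In the 9 lymphocyte classes the 10 genes took 0.0554% to 0.149% of UMIs in metformin and 0.0503% to 0.149% in control. The order microglia, macrophages, dendritic cells, lymphocytes thus held for the sum of the 10 genes in both libraries, while single genes departed from it as described gene by gene.

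**Figure D1:**
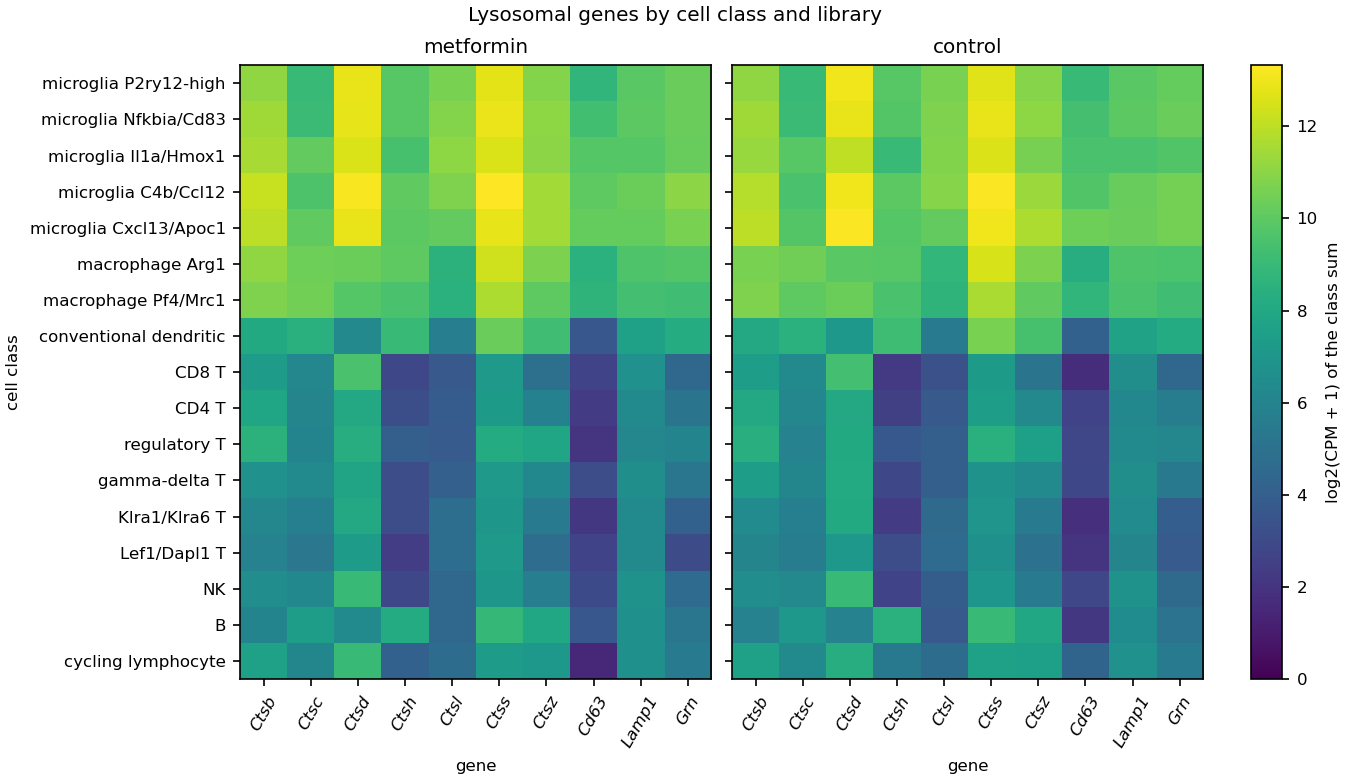
Levels of the 10 genes (columns) in the 17 classes compared (rows), with the metformin library in the left panel and the control library in the right. Colour gives log2(CPM + 1) of the summed UMIs of a class. Ctsd is bright in the 5 microglial states and dim in conventional dendritic cells (76.9 CPM in metformin and 136.8 CPM in control), and Ctsh is brighter in B cells than in T cells.

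Ctsd encodes cathepsin D, the main aspartic protease of the lysosome. It reached 9400.3 CPM in C4b/Ccl12 microglia of the metformin library (interval 9292.0 to 9509.5), against 8565.4 CPM in the control library (8451.2 to 8680.7). In P2ry12-high microglia it stood at 7535.0 CPM in metformin and 8340.2 CPM in control. In control the highest level was that of Cxcl13/Apoc1 microglia, at 9651.8 CPM. A single cell held a large part of that sum, and the median cell lay well below it, as given further on. The microglial states were all far above both macrophage classes, in both libraries. Arg1 macrophages had 1289.6 CPM in metformin and 959.6 CPM in control, and Pf4/Mrc1 macrophages, which carry markers of macrophages at brain borders, had 892.2 CPM in metformin and 1286.7 CPM in control. The Arg1 macrophage level was 0.171 times that of P2ry12-high microglia in metformin and 0.115 times in control, a ratio at percentile 6.73 of 3700 eligible genes in metformin and 5.24 of 3737 in control. Ctsd was spread unevenly among Arg1 macrophages: the median cell had 481.7 CPM in metformin and 484.0 CPM in control, and the richest cell held 11.4% of the class's Ctsd UMIs in metformin and 4.63% in control.

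Ctsb encodes cathepsin B, a cysteine protease that also trims pairs of residues from the carboxyl end. It stood at 4751.9 CPM in C4b/Ccl12 microglia of metformin mice and 3673.3 CPM in those of control mice. In Cxcl13/Apoc1 microglia, a small state of low depth, it stood at 4100.8 CPM in metformin and 4065.7 CPM in control. P2ry12-high microglia had 2181.0 CPM in metformin and 2227.1 CPM in control, so that Ctsb was 2.18 times as high in the C4b/Ccl12 state in metformin and 1.65 times in control. Arg1 macrophages did not separate from P2ry12-high microglia in metformin, with 2199.7 CPM and overlapping intervals, while in control they lay lower at 1622.5 CPM. Ctsb and Ctsd were among the 10 leading genes of the C4b/Ccl12 cluster although they were kept out of the clustering, so their height there describes the cluster and is not a test of it.

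Ctss encodes cathepsin S, a protease that stays active at neutral pH and cuts the invariant chain in antigen-presenting cells. Its level in C4b/Ccl12 microglia was 10269.8 CPM in metformin and 9732.2 CPM in control. In P2ry12-high microglia it was 7124.9 CPM in metformin and 6598.0 CPM in control, and in Arg1 macrophages 5336.5 CPM in metformin and 5814.3 CPM in control. Microglia and macrophages were thus closer in Ctss than in Ctsd. Conventional dendritic cells had 1238.3 CPM in metformin and 1600.9 CPM in control, and a Ctss UMI was present in 93.0% of metformin and 97.8% of control dendritic cells once each cell was thinned to 3583 UMIs, against 99.3% and 99.0% of all dendritic cells at full depth. Among lymphocytes B cells were highest, with 464.1 CPM in metformin and 497.2 CPM in control.

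Ctsl encodes cathepsin L, a cysteine endopeptidase. Among the 17 classes compared it was highest in the 5 microglial states. These ranged from 1104.4 to 2149.1 CPM in metformin and from 1109.3 to 1898.3 CPM in control. Both macrophage classes lay between 365.7 and 383.6 CPM in metformin and between 403.7 and 449.3 CPM in control, below every microglial state. The Il1a/Hmox1 state, led by the cytokine gene Il1a and the haem oxygenase gene Hmox1, was highest in metformin with 2149.1 CPM, and the C4b/Ccl12 state in control with 1898.3 CPM. The Cxcl13/Apoc1 state was the lowest of the microglial states for Ctsl in both libraries.

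Ctsc, whose product removes dipeptides from the amino end and activates granule proteases, departed from the microglial pattern. It was highest in macrophages: Pf4/Mrc1 macrophages had 1439.4 CPM in metformin and 1055.0 CPM in control, and Arg1 macrophages had 1321.6 CPM in metformin and 1363.4 CPM in control. P2ry12-high microglia had 530.1 CPM in metformin and 498.7 CPM in control, so Arg1 macrophages were 2.49 times as high in metformin and 2.73 times in control. Of the microglial states, Il1a/Hmox1 was highest with 1122.7 CPM in metformin and 925.3 CPM in control. Conventional dendritic cells followed with 348.4 CPM in metformin and 358.7 CPM in control.

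Ctsh encodes cathepsin H, an aminopeptidase. C4b/Ccl12 microglia and Arg1 macrophages were close in it, and Il1a/Hmox1 microglia were lowest of the microglial states: the first had 1065.0 CPM in metformin and 1018.9 CPM in control, Arg1 macrophages 1038.7 CPM and 943.7 CPM, and Il1a/Hmox1 microglia 690.1 CPM and 523.4 CPM. Conventional dendritic cells kept 530.0 CPM in metformin and 576.5 CPM in control, 0.51 and 0.611 times the level of Arg1 macrophages. Ctsz encodes cathepsin Z, a carboxypeptidase also known as cathepsin X. It was highest in Cxcl13/Apoc1 microglia, with 2900.1 CPM in metformin and 3283.3 CPM in control, and followed in C4b/Ccl12 microglia with 2837.9 CPM in metformin and 2555.1 CPM in control. Conventional dendritic cells had 611.0 CPM of Ctsz in metformin and 689.2 CPM in control.

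Cd63 encodes a tetraspanin of late endosomes, lysosomes and secretory granules. Its order over the microglial states was the same in both libraries: P2ry12-high microglia had 436.5 CPM in metformin and 525.5 CPM in control, C4b/Ccl12 microglia 1034.7 CPM in metformin and 829.1 CPM in control, and Cxcl13/Apoc1 microglia 1142.9 CPM in metformin and 1337.1 CPM in control. Cd63 was among the leading genes of the Cxcl13/Apoc1 cluster. Arg1 macrophages had 360.3 CPM in metformin and 319.2 CPM in control, but the median cell held none in either library. After thinning, 29.8% of metformin and 22.2% of control Arg1 macrophages had a Cd63 UMI (39.9% and 30.7% unthinned), against 69.5% and 72.6% of P2ry12-high microglia (79.9% and 83.5% unthinned). Conventional dendritic cells had 11.4 CPM in metformin and 16.8 CPM in control, from 28 and 25 UMIs.

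Lamp1 encodes a heavily glycosylated protein that lines the lysosomal membrane. It varied little among the 7 microglia and macrophage classes, from 641.4 to 1278.6 CPM in metformin and from 716.2 to 1257.8 CPM in control. Conventional dendritic cells had 194.6 CPM in metformin and 206.5 CPM in control. Grn encodes progranulin, which is secreted or carried to the lysosome and cut into granulins, and whose loss causes lysosomal storage in neurons and microglia. It stood at 2038.3 CPM in C4b/Ccl12 microglia of metformin mice (1988.1 to 2089.5), against 1513.4 CPM in control mice (1465.7 to 1562.4). P2ry12-high microglia had 1223.9 CPM in metformin and 1166.0 CPM in control, and Arg1 macrophages 881.4 CPM in metformin and 747.0 CPM in control.

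Not every step in these orders exceeded counting error. Of the 16 pairs of neighbouring classes in the order of 1 gene in 1 library, 5 to 12 had overlapping intervals. The fewest overlaps were seen for Ctsb in metformin and for Ctsd and Ctss in control, with 5 each. The most, 12, were seen for Ctsh, Cd63 and Lamp1 in metformin. In every order at least 4 of the overlaps were between lymphocyte classes.

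Classes with too few cells for a comparison still set several genes apart. Basophil or mast cells (17 metformin and 33 control cells) had 4341.8 CPM of Cd63 in metformin and 3899.3 CPM in control, above every class of the comparison. Cd63 is a known marker of granule release in these cells. Mature dendritic cells (70 and 44 cells), marked by the chemokine receptor gene Ccr7, had 1264.9 CPM of Cd63 in metformin and 1379.8 CPM in control. In conventional dendritic cells Cd63 was at 1.86 times the C1q share, described with the lymphocytes, in metformin and 0.861 times in control. Both values lie near that share, so no fold between these classes is given. Whether the C1q of conventional dendritic cells is released RNA was not tested. Lamp1 was also higher in mature than in conventional dendritic cells, with 956.6 CPM in metformin and 788.0 CPM in control. Ctsl was at 12.6 CPM in metformin and 16.8 CPM in control mature dendritic cells, from few UMIs.

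Plasmacytoid dendritic cells (35 and 21 cells), the interferon-producing dendritic lineage, held Ctsl at 1528.1 CPM in metformin and 1477.9 CPM in control. Their Ctsb stood at 1448.0 CPM in metformin and 1380.9 CPM in control, their Grn at 1129.6 CPM and 1100.6 CPM, and their Ctsh at 1347.3 CPM and 1107.5 CPM. Conventional dendritic cells lay well below these values for Ctsl, Ctsb and Grn. In the control plasmacytoid cells 1 cell held 78.1% of the Ctsd UMIs, and that class had 2637.3 CPM of the 3 C1q genes in control against 47.2 CPM in metformin, so its Ctsd is not described. Monocytes (47 and 94 cells) had Ctsb at 1402.5 CPM in metformin and 1263.5 CPM in control, and their Cd63 rested on 1 UMI in metformin and 2 UMIs in control.

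RNA released from broken cells enters every droplet, so low levels in lymphocytes were read against C1qa, C1qb and C1qc, complement genes of microglia and macrophages. A C1q UMI was present in 40.4% to 72.4% of the cells of the lymphocyte classes in metformin and in 34.6% to 52.9% in control. In CD8 T cells the C1q level was 0.453% of that of microglia and macrophages together in metformin and 0.324% in control. For each gene the same percentage was divided by that of C1q, so that a value near 1 is what shared released RNA alone would give. Lamp1 was 13.8 to 24.8 times the C1q share in the metformin lymphocyte classes and 8.91 to 32.6 times in the control classes. Cd63 was under 2 in 5 of 9 classes in metformin and 6 of 9 in control, and Ctsh was under 2 in 5 of 9 classes in both, so those levels are at background there.

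**Figure D2:**
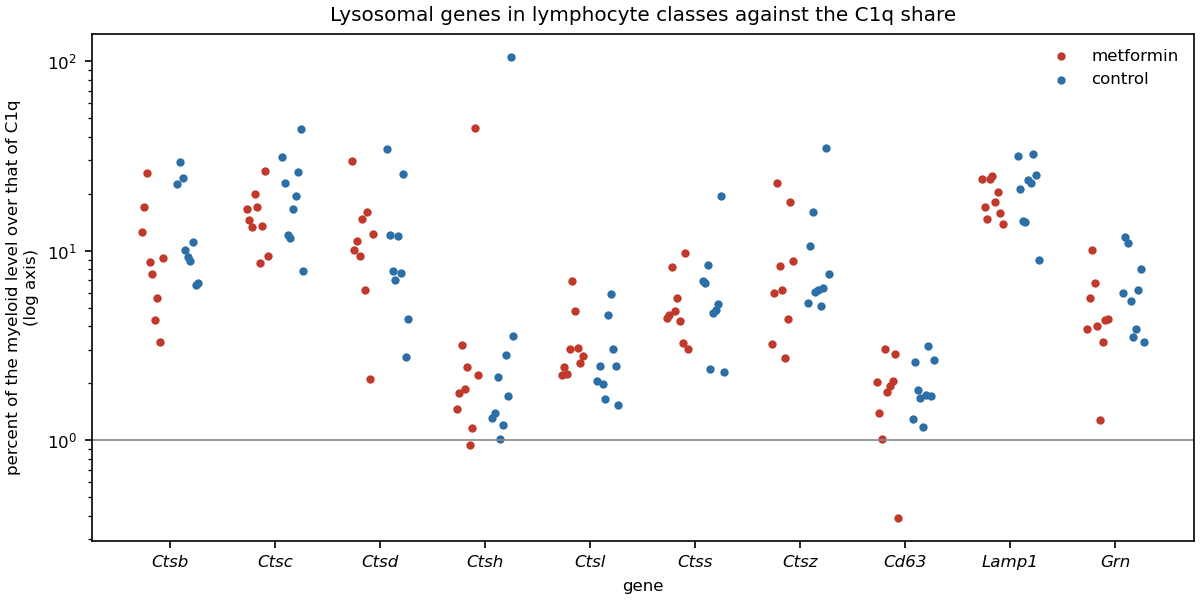
Level of each gene in each of the 9 lymphocyte classes as a percentage of its level in microglia and macrophages, divided by the same percentage of the C1q genes (log axis), with metformin points left of control points. The line at 1 marks the C1q share. Lamp1 points lie between 8.91 and 32.6, the Ctsh points of B cells at 44.4 in metformin and 105.7 in control, and most Cd63 points under 3.

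The lymphocyte classes differed in which cathepsins they carried. Ctsd was highest in CD8 T cells, with 730.0 CPM in metformin (708.3 to 752.2) and 648.8 CPM in control (627.0 to 671.1). NK cells, also cytotoxic, had 503.5 CPM in metformin and 519.0 CPM in control. Cycling lymphocytes, a mix of lineages, had 509.0 CPM in metformin, where their interval overlapped that of NK cells, and 316.1 CPM in control. CD4 T cells had 260.0 CPM in metformin and 265.9 CPM in control, and B cells 77.9 CPM and 59.2 CPM, near the C1q share at 2.11 and 2.74 times it. After thinning, 81.8% of metformin and 78.2% of control CD8 T cells had a Ctsd UMI (94.2% and 89.3% unthinned), against 21.9% and 17.8% of B cells (33.6% and 32.1% unthinned). The medians of depth were 9547 and 8278 UMIs in CD8 T cells and 5240.5 and 5625 UMIs in B cells.

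B cells showed the reverse for Ctsh. They had 293.8 CPM in metformin (268.8 to 320.5) and 357.6 CPM in control (340.3 to 375.5), against 6.49 CPM and 3.88 CPM in CD8 T cells. Thinned B cells held a Ctsh UMI in 66.2% of metformin and 71.2% of control cells, against 2.28% and 1.9% of thinned CD8 T cells. B cells were also the highest lymphocytes for Ctsc, with 168.5 CPM in metformin and 134.5 CPM in control, and for Ctsz, with 251.7 CPM in both libraries. For Ctsz in metformin their interval overlapped that of regulatory T cells. B cells are antigen-presenting lymphocytes and T and NK cells in the mouse are not, which is background to the contrast and not a result of it.

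Regulatory T cells, defined by Foxp3, had the highest Ctsb of the lymphocyte classes. It was at 370.6 CPM in metformin and 341.2 CPM in control, followed by CD4 T cells with 229.2 CPM in metformin and 261.5 CPM in control. In the Lef1/Dapl1 T cells, which carry genes of naive cells, it was at 58.3 CPM in metformin and 65.0 CPM in control. Ctsz was at 234.2 CPM in metformin and 186.1 CPM in control regulatory T cells, against 29.6 CPM and 33.6 CPM in CD8 T cells. Cycling lymphocytes had 138.0 CPM of Ctsz in metformin and 183.3 CPM in control, where their interval overlapped that of regulatory T cells. Ctsc, which activates granzymes, had 70.7 CPM in metformin and 83.6 CPM in control CD8 T cells. CD4 T cells had 64.8 CPM in metformin and 70.5 CPM in control, with intervals that overlapped those of CD8 T cells in both libraries.

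The 10 genes had like profiles over the 17 classes. Over 34 points, a class in a library each, Pearson's r of their log2(CPM + 1) levels ran from 0.6 for Ctsd with Ctsh to 0.98 for Ctsz with Grn. The points share libraries, free RNA and the broad contrast of myeloid and lymphoid cells, so these values describe that contrast. Of 5735 genes compared, the most like the mean of the 10 profiles outside the lysosomal lists were Sirpa, an inhibitory receptor of phagocytes, at r = 0.987, and Csf1r, the receptor that microglia and macrophages need to survive, at 0.986. Lrp1, an endocytic receptor, and F11r, a junction protein, followed at 0.983 each, and then the antisense RNA Plxna4os1 at 0.982. Lamp1 (0.99) and Ctss (0.988) were closest to the mean and Ctsd (0.854) farthest from it.

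Within a class the genes varied together less. Over the 45 pairs of genes, the median correlation of their log levels across cells was 0.17 in 523 metformin and 0.16 in 787 control P2ry12-high microglia. In Arg1 macrophages it was 0.33 in metformin and 0.31 in control, and 27 and 23 of the 45 pairs passed 0.3. In Il1a/Hmox1 microglia it was 0.32 in metformin and 0.34 in control. The closest pair was Ctsd with Ctsz in the 64 metformin cells of that state, at 0.72. In B cells and CD8 T cells none of the 45 pairs passed 0.3 in either library. Cells share their depth, and counts of a few UMIs per cell keep such values low.

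The promoters of these genes were searched for the E-box CACGTG, the sequence read by TFEB, TFE3 and MITF, known regulators of lysosomal genes. The motif is its own reverse complement, so a match lies on both strands. RefSeq windows on GRCm38.p6, 250 bases before to 50 bases after the gene start, were matched for 8 of the 10 genes (Ctsb and Ctsh had none in the table). CACGTG was found in 3 of the 8 windows, those of Ctsd, Ctsl and Lamp1, and in 7.15% of all 32851 windows. The longer TCACGTGA, which contains it, was found in 1 of the 8, that of Ctsd, and in 0.974% of all windows. The stretches with the matches that lie before the RefSeq start are shown because they place the motif beside Ctsd, which differed most between microglia and macrophages, and Lamp1, which differed little. They read 5′ to 3′ on the strand of the gene, with CACGTG in capitals.
Ctsd, chr7:142388055-142388077, minus strand: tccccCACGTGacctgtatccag
Ctsd, chr7:142387908-142387937, minus strand: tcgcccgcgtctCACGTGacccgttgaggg
Ctsl, chr13:64370739-64370768, minus strand: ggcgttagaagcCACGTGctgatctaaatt
Lamp1, chr8:13159085-13159160, plus strand: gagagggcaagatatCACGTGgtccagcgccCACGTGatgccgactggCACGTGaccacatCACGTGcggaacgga

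Distances are counted from the RefSeq start used for each window. The Lamp1 window held 4 matches, which begin 61, 45, 28 and 15 bases before that start. The Ctsd window held 2, at 245 and 98 bases, and the Ctsl window 1, at 236 bases. In GENCODE the genes of Ctsd and Ctsl begin farther upstream, and there the second Ctsd stretch and part of the Ctsl stretch are annotated as 5′ UTR. A match is a description of the letters and not a site or a cause, and no binding was measured in these data. Of the known readers, Tfe3 was highest in Il1a/Hmox1 microglia, with 210.6 CPM in metformin and 287.4 CPM in control. Tfeb was highest at 32.3 CPM in metformin B cells and 46.7 CPM in control Il1a/Hmox1 microglia, and Mitf at 44.4 CPM in metformin Il1a/Hmox1 and 49.1 CPM in control C4b/Ccl12 microglia. Tfec, a relative, was highest in Arg1 macrophages with 18.7 CPM in metformin and 29.4 CPM in control.

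Other lysosomal genes mostly shared the microglial peak. Of 15 other membrane proteins, 14 were highest in a microglial state in both libraries, as were 24 of 31 glycosidases, lipases and other hydrolases. Of 16 subunits of the vacuolar ATPase, the pump that acidifies the lysosome, 12 were highest in microglia in metformin and 13 in control, 7 of them in the Il1a/Hmox1 state in both. The asparaginyl protease legumain, Lgmn, which processes cathepsins, was at 3782.7 CPM in metformin and 3816.2 CPM in control P2ry12-high microglia. Ctsw, a cathepsin of cytotoxic lymphocytes, showed the opposite, with 772.0 CPM in metformin and 649.0 CPM in control CD8 T cells. None of the 7 genes of class II loading was highest in microglia: 3 were highest in Pf4/Mrc1 macrophages and 4 in conventional dendritic cells in metformin, and 2 and 5 in control. Of the cathepsin inhibitors, Cst3, cystatin C, was highest in P2ry12-high microglia with 45569.1 CPM in metformin and 46071.3 CPM in control, and Cstb, cystatin B, in Arg1 macrophages with 706.8 CPM in metformin and 713.8 CPM in control.

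Between metformin and control the 10 genes were compared in the 17 classes, 170 pairs of a gene and a class. A pair was called where the gene had at least 50 CPM and 20 UMIs in 1 library, its ratio of metformin over control was at least 1.5 either way and the interval of the ratio did not hold 1. There were 3 such pairs among the 131 that reached the minimum, where 4.48% of the pairs of all genes were called. Ctsd had the smaller level in conventional dendritic cells of metformin mice, where it was near the C1q share in both libraries. Ctsb was lower in γδ T cells of metformin mice, and Ctsd was higher in cycling lymphocytes of metformin mice. No pair was called in the 5 microglial states or the 2 macrophage classes. The share of all eligible genes called there was 0.186% in P2ry12-high, 2.94% in Nfkbia/Cd83, 8.59% in Il1a/Hmox1, 2.55% in C4b/Ccl12 and 14.3% in Cxcl13/Apoc1 microglia, and 3.9% in Arg1 and 9.63% in Pf4/Mrc1 macrophages.

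**Figure D3:**
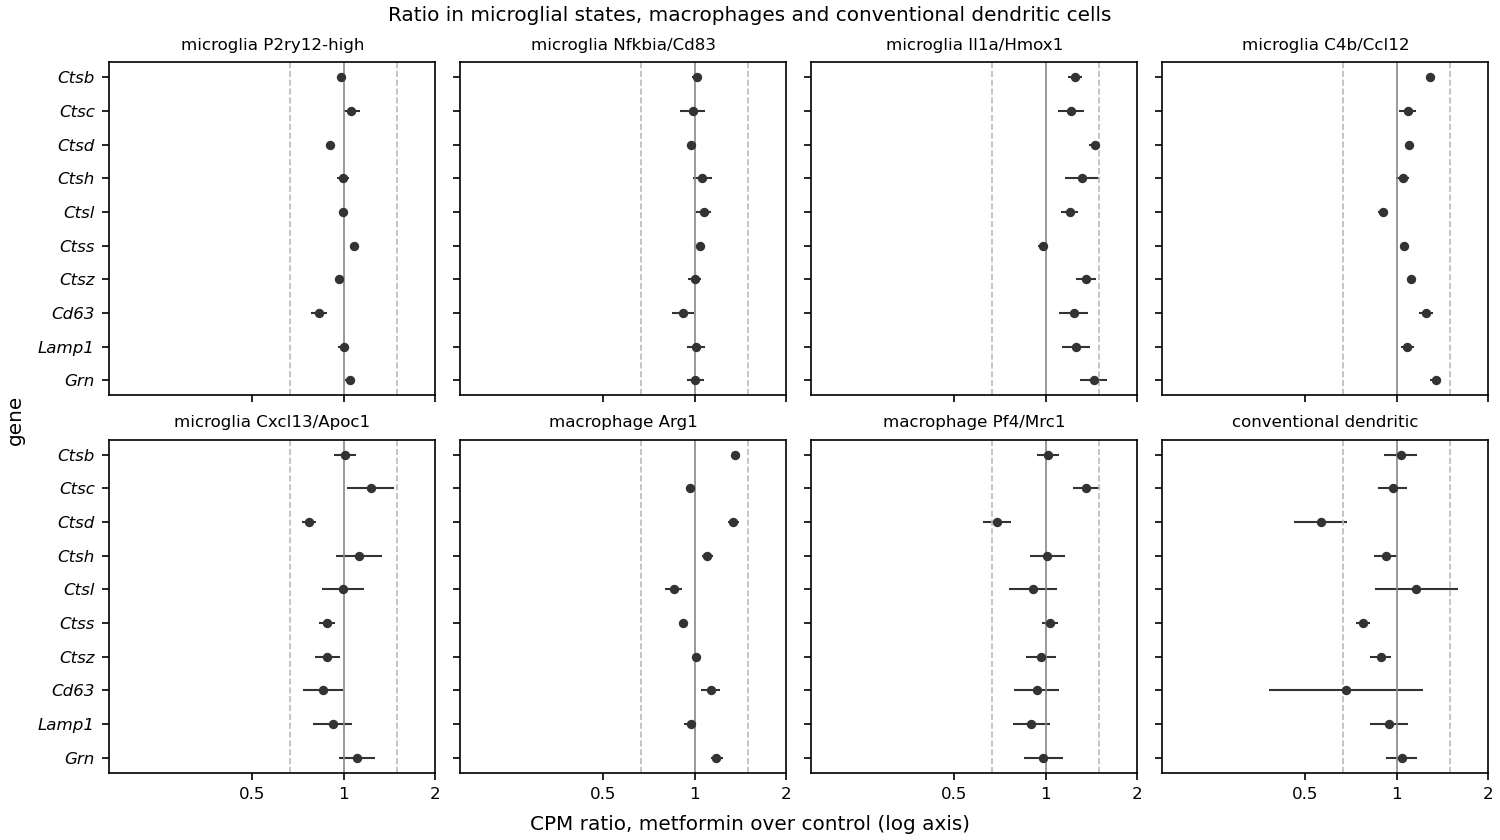
Ratio of CPM, metformin over control, for the 10 genes in each of the 8 myeloid classes compared (log axis), with the exact 95% interval for counting error. Solid lines mark 1 and dashed lines the size of 1.5 either way. Most points of Il1a/Hmox1 and C4b/Ccl12 microglia lie above 1 and short of 1.5, and Ctsd in conventional dendritic cells lies at 0.563.

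Il1a/Hmox1 microglia had 9 of 10 genes with an interval above 1, against 10.2% of all genes eligible in that class. Genes with more UMIs have narrower intervals, and the 10 genes are among the abundant ones. The median log2 ratio was 0.33 over the 10 genes and −0.05 over all eligible genes. Ctsd had 6183.3 CPM in 64 metformin cells and 4269.0 CPM in 85 control cells, a ratio of 1.45 (1.39 to 1.51). Grn had 1201.4 CPM in metformin and 835.3 CPM in control, a ratio of 1.44 (1.3 to 1.59). Ctsz stood at 1.36, Ctsh at 1.32 and Lamp1 at 1.26 times the control level, and Ctss at 0.98. The median cell differed less in Ctsd than the sum, with 4095.1 CPM in metformin and 3595.1 CPM in control, and the quartiles of the libraries overlapped. Beside this, the summed microglia markers were at 5748.1 CPM in metformin and 6084.6 CPM in control, and the summed macrophage markers at 10320.3 CPM and 9415.5 CPM, with Spp1 and Lyz2 called higher. Some marker lists of other cells also had larger sums in metformin: T cell markers summed to 137.0 CPM in metformin and 38.6 CPM in control, type 2 dendritic markers to 78.7 CPM and 9.35 CPM, classical monocyte markers to 71.0 CPM and 31.5 CPM, and border-type macrophage markers to 30.4 CPM and 10.5 CPM. Interferon response genes summed to 2478.9 CPM in metformin and 1657.8 CPM in control. Their part in the result was not tested.

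C4b/Ccl12 microglia had 8 of 10 genes with an interval above 1 and 1 below, against 15% above and 17.8% below over all eligible genes, with a median log2 ratio of 0.12 against −0.03 over all eligible genes. Grn led with a ratio of 1.35 (1.29 to 1.4), followed by Ctsb at 1.29 (1.26 to 1.33) and Cd63 at a log2 ratio of 0.32. Ctsl had 1712.8 CPM in metformin against 1898.3 CPM in control, a ratio of 0.902 (0.867 to 0.939). Over the alternatives that ratio ran from 0.883 to 1.01, so no direction is read for Ctsl here. Grn and Ctsb differed in the median cell too: Grn had 1772.0 CPM in metformin and 1386.1 CPM in control, and Ctsb 3855.3 CPM in metformin and 3085.0 CPM in control. Cd63 did not, with medians of 636.1 CPM in metformin and 663.7 CPM in control. Beside this, the summed microglia markers were at 7790.6 CPM in metformin and 9560.8 CPM in control (0.815 times), and the macrophage markers summed to 15331.5 CPM in metformin and 14691.7 CPM in control, with Spp1 and Gpnmb called higher. Classical monocyte markers summed to 128.0 CPM in metformin and 38.7 CPM in control, and NK markers to 94.0 CPM and 17.5 CPM. Neutrophil markers went the other way, with 210.3 CPM in metformin and 463.4 CPM in control. Their part in the result was not tested.

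**Figure D4:**
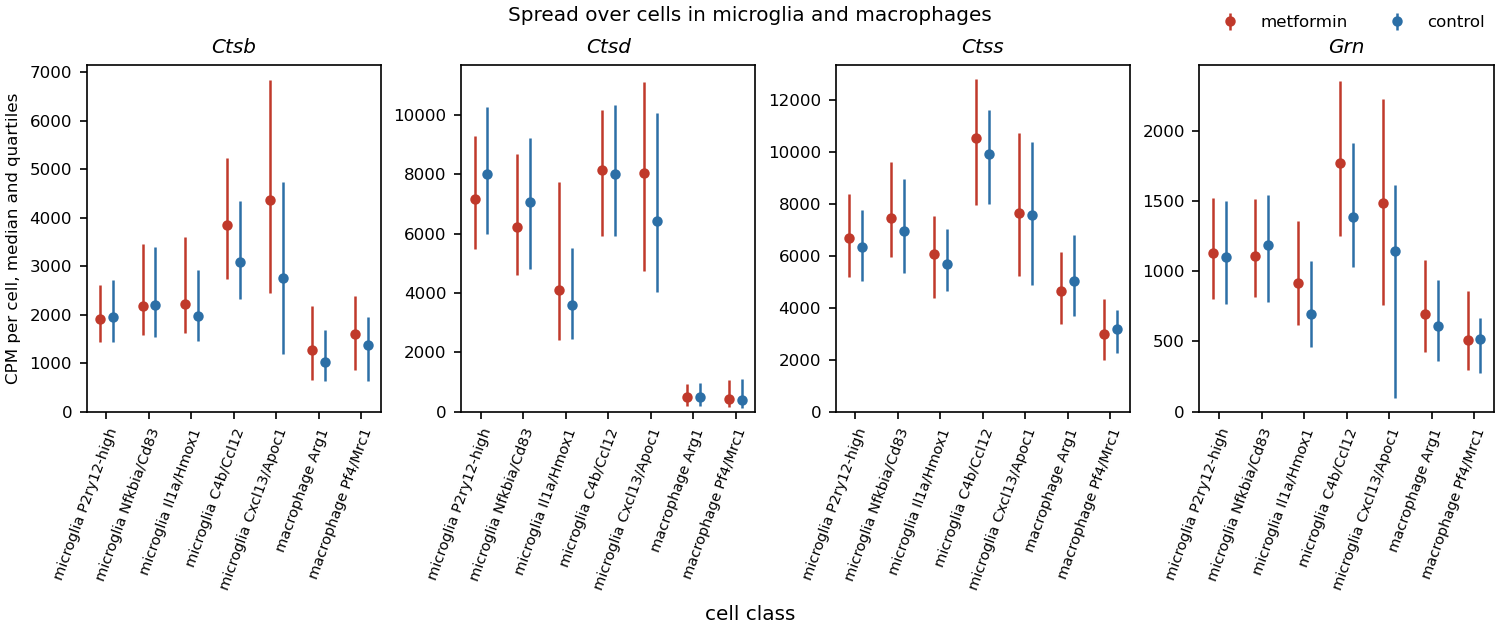
CPM per cell of Ctsb, Ctsd, Ctss and Grn in the 5 microglial states and 2 macrophage classes, with metformin left of control. Points are medians over cells and bars run from the lower to the upper quartile. In C4b/Ccl12 microglia the metformin medians of Ctsb (3855.3) and Grn (1772.0) lie above the control medians (3085.0 and 1386.1) with overlapping quartiles, and the Ctsd medians of Arg1 macrophages are level (481.7 and 484.0).

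P2ry12-high microglia, the largest microglial class with 523 metformin and 787 control cells, had ratios near 1. The log2 ratios of the 10 genes lay between −0.27 for Cd63 and 0.11 for Ctss. Ctsd stood at 0.903 times control (0.89 to 0.917) and Cd63 at 0.831 times (0.78 to 0.884), while Ctss stood at 1.08 times (1.06 to 1.1). In Nfkbia/Cd83 microglia, led by early response genes, the log2 ratios lay between −0.13 and 0.1.

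Cxcl13/Apoc1 microglia gave opposite signs by the sum and by the cell. Summed over 75 metformin and 55 control cells, Ctsd was 0.771 times control (0.729 to 0.815), but the median cell had 8050.1 CPM in metformin and 6420.5 CPM in control. In control 1 cell held 20% of the Ctsd UMIs, against 6.73% in metformin. The median depth of the state was 3380 UMIs in metformin and 1534 UMIs in control, and the summed markers of cycling cells were at 1230.7 CPM in metformin and 401.1 CPM in control. Their part in the result was not tested, and no direction is read for this state.

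Arg1 macrophages had 5 genes with an interval above 1 and 2 below, against 20.7% above and 24% below over all eligible genes. Ctsb had 2199.7 CPM in metformin and 1622.5 CPM in control, a ratio of 1.36 (1.32 to 1.4), and the median cell 1280.5 CPM in metformin and 1019.2 CPM in control. Ctsd had a ratio of 1.34 (1.29 to 1.4), but its medians were level, as given above. Grn had a ratio of 1.18 (1.13 to 1.24). Ctsl lay lower, at 0.854 (0.801 to 0.91), and so did Ctss at 0.918 (0.902 to 0.934). The median depth was 13238 UMIs in metformin and 10266.5 UMIs in control, the summed classical monocyte markers were at 4296.8 CPM and 5836.7 CPM, and Arg1 itself was called lower in metformin. Interferon response genes summed to 4189.6 CPM in metformin and 5674.3 CPM in control, with Ifit1, Ifit2, Ifit3 and Mx1 called lower. Their part in the result was not tested. Pf4/Mrc1 macrophages had Ctsc at 1.36 times control (1.23 to 1.51) and Ctsd at 0.693 times (0.623 to 0.772). Microglia markers summed to 1348.0 CPM in metformin and 1992.3 CPM in control there, with P2ry12, Siglech, Sparc and P2ry13 called lower and none of the 9 at 0, and their part in the result was not tested.

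Conventional dendritic cells had 189 Ctsd UMIs in 148 metformin cells and 204 in 100 control cells, which is 76.9 CPM in metformin and 136.8 CPM in control. The ratio was 0.563 (0.459 to 0.689). Read against C1q as in lymphocytes, Ctsd was 1.38 times the C1q share in metformin and 0.669 times in control. The C1q share itself was 1.03% in metformin and 3.51% in control, against 0.453% and 0.324% in CD8 T cells. Whether this C1q is released RNA or comes from cells that carry it was not tested. The ratio is not read as a difference in expression. Of the genes eligible in this class, 3.71% were called lower and 6.14% in either direction. In control 1 cell held 23% of these UMIs, and in metformin 1 cell held 12.7%, and the median cell held none in either library. By subcluster, Ctsd was 25.2 CPM (16.6 to 36.6) in metformin and 223.6 CPM (177.5 to 277.9) in control type 1 cells (53 and 19 cells). Cells assigned to neither type (28 and 16 cells) went the other way, with 210.1 CPM in metformin and 84.3 CPM in control. Among these, 17 metformin and 7 control cells formed a subcluster led by genes of T cells, such as Gzma, Trbc2, Trac and Cd3d. The part of that subcluster was not tested, and no dendritic direction is read from the unassigned cells. The subclusters scored as type 2 (67 and 65 cells) included 1 of 5 metformin and 12 control cells led by Cd14, Ccl2 and C1qb, known from monocytes and macrophages, so no type 2 value is given.

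The C1q genes moved the same way in conventional dendritic cells: C1qa had 56.2 CPM in metformin and 288.9 CPM in control, a ratio of 0.194, and C1qb and C1qc stood at 0.374 and 0.302 times control. The 12 macrophage markers summed to 1443.4 CPM in metformin and 2466.4 CPM in control, with 4 called lower, Lyz2, C1qa and Cd14 among them, and 1 at 0 in control. The 9 microglia markers summed to 88.7 CPM in metformin and 234.0 CPM in control, with none at 0. Interferon response genes summed to 2947.5 CPM in metformin and 3456.5 CPM in control, with Ifit3, Mx1 and Rsad2 called lower. Their part in the lower Ctsd was not tested. The other genes of the set differed less, with Ctss at 0.773 (0.733 to 0.816) and Ctsz at 0.887 (0.818 to 0.961), while Ctsb and Grn had intervals that held 1. Without the filter on genes and mitochondrial UMIs Ctsd stood at 0.84 times control, with called doublets kept at 0.777, and as a mean over cells at 0.768, each short of the size rule. With each library clustered on its own it stood at 0.15 times.

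Cycling lymphocytes had 1147 Ctsd UMIs in 98 metformin cells and 657 in 87 control cells, which is 509.0 CPM in metformin and 316.1 CPM in control, a ratio of 1.61 (1.46 to 1.77). Of the genes eligible there 3.28% were called higher and 6.46% in either direction. The class holds several lineages: the CD8 T markers summed to 1088.5 CPM in metformin and 457.6 CPM in control, and the NK markers to 1984.3 CPM and 868.5 CPM. B cell markers summed to 63.5 CPM in metformin and 315.6 CPM in control, and plasma cell markers to 51.0 CPM and 676.0 CPM. Outside the cycling class Ctsd was high in CD8 T and NK cells and low in B cells, and the part of this mix in the ratio was not tested. The ratio was 1.41 under the stricter cell filter, 1.39 without a filter, 1.41 with variable genes drawn from all genes and 1.5 (rounded up) as a mean over cells, each short of the size rule. Ctsw followed with 436.2 CPM in metformin and 212.2 CPM in control. In CD8 T cells, where 0.978% of eligible genes were called, Ctsd was 1.13 times control (1.08 to 1.18), and in NK cells, where 0.965% were called, 0.97 times with an interval that held 1. Of the 10 genes in cycling lymphocytes, 1 had an interval above 1, 4 below and 5 that held 1. Their median log2 ratio was −0.16. Ctsz stood at 0.753 times control (0.646 to 0.877) and Ctss at 0.832 (0.721 to 0.96). Ctsh at 0.406 (0.268 to 0.605) and Cd63 at 0.0971 (0.0252 to 0.27) fell short of the minimum. Over the alternatives Ctsz ran from 0.599 to 1.41 and Ctss from 0.57 to 1.93, so no direction is read for either.

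γδ T cells had 41 Ctsb UMIs in 54 metformin cells and 77 in 66 control cells, which is 107.7 CPM in metformin and 167.3 CPM in control. The ratio was 0.644 (0.43 to 0.952), in a class where 4.65% of eligible genes were called lower and 8.11% in either direction. C1qb was lower there as well, with 26.3 CPM in metformin and 60.8 CPM in control, and its part was not tested. With doublets kept the ratio was 0.816 with an interval that held 1.

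In the other lymphocyte classes no gene of the set was called, where 1.49% of eligible genes were called in CD4 T, 1.89% in regulatory T, 1.99% in Klra1/Klra6 T, 3.42% in Lef1/Dapl1 T and 1.99% in B cells. In CD4 T cells Ctsb (0.876), Ctss (0.869) and Ctsz (0.743) were below control with intervals under 1. Grn was too, at 0.693 (0.552 to 0.865), but fell short of the minimum with 33.6 CPM in metformin and 48.4 CPM in control. Over the alternatives the CD4 T cell ratio of Ctsb ran from 0.818 to 1.12. In regulatory T cells Ctsz was 1.26 times control (1.1 to 1.44), with 234.2 CPM in metformin and 186.1 CPM in control. Ctsd was 1.14 times control there (1.02 to 1.27), and Ctss 0.842 times (0.757 to 0.936). In B cells Ctsd was 1.32 times control (1.06 to 1.63) and Ctsh 0.822 times (0.742 to 0.908). Ctsc had a log2 ratio of 0.33 there, with 168.5 CPM in metformin and 134.5 CPM in control. Over the alternatives the B cell ratio of Ctsd ran from 0.674 to 1.53 and that of Ctsc from 0.901 to 1.27. No direction is read for these 2 genes, while Ctsh ran from 0.693 to 0.871. C1qa was 63.5 CPM in metformin and 30.1 CPM in control B cells, and its part in these ratios was not tested.

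Over the 17 classes, where 4.48% of all 47258 eligible pairs of a gene and a class were called, 0 of 124 eligible pairs of another lysosomal membrane protein and a class were called higher and 1 lower, and of 161 pairs of a vacuolar ATPase subunit 1 was called higher and 3 lower. Of 242 pairs of a hydrolase, 10 were called higher and 7 lower. Of 43 pairs of another cathepsin or legumain, 1 was called higher and 4 lower, and of 58 pairs of a cathepsin inhibitor, 2 higher and 2 lower. Of 79 pairs of a class II loading gene 8 were called higher and 6 lower, and of 37 pairs of a sorting or control gene 1 each. Glb1, the lysosomal beta-galactosidase, was higher in Il1a/Hmox1 (1.85, 1.15 to 3.0) and C4b/Ccl12 microglia (1.51, 1.22 to 1.88), and Lipa, the lysosomal acid lipase, in Arg1 macrophages with 99.7 CPM in metformin and 64.7 CPM in control.

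Among cathepsin inhibitors, Cst7, which encodes cystatin F and restrains cathepsin C and other cysteine cathepsins, had the clearest difference. In C4b/Ccl12 microglia it had 409.8 CPM in metformin and 143.6 CPM in control, a ratio of 2.85 (2.54 to 3.22) from 1255 and 360 UMIs. In Il1a/Hmox1 microglia it had 139.5 CPM in metformin and 53.7 CPM in control, a ratio of 2.6 (1.82 to 3.75). In Nfkbia/Cd83 microglia 4 of 6 eligible class II loading genes were called lower, among them H2-Ab1 (0.559, 0.523 to 0.598) and Cd74, the invariant chain that cathepsins S and L trim (0.656, 0.633 to 0.679), while Ctss there was 1.04 times and Ctsl 1.07 times control.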

How the data were processed

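The deposited matrices hold counts, whole UMIs per gene and barcode, written by 10x software 3.0.0 per the file headers. Cell Ranger, Seurat and mm10 are named in the submitters' processing notes, and further settings are not given in the sources used here.

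Barcodes with under 300 genes or over 10% mitochondrial UMIs were removed, then doublets called per library by Scrublet (5% expected), which marked 0.825% of metformin and 1.23% of control cells. Both libraries were clustered together in scanpy 1.11.5 with leidenalg 0.10.2 (2000 variable genes without lysosomal and cycling genes, 30 components, 15 neighbours, resolution 1). Of 33 clusters 3 stayed unnamed, with 127 metformin and 105 control cells, and the others gave 22 classes. UMIs were summed per class and library and divided by the class total. Exact Poisson intervals for levels and exact conditional intervals for ratios came from scipy 1.17.1. The size rule was checked on simulated data. To compare shares of cells with a UMI, cells were thinned to 3583 UMIs, the lowest 10% in depth left out.

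The 10 genes and all lists were chosen with earlier results of these data known. All 10 genes are given. Of every other lysosomal list, counts of calls are given with up to 3 genes whose interval lay farthest from 1, and the 5 genes most like the mean profile are named. Tfeb, Tfe3, Mitf, Tfec, Cstb, Lgmn, Ctsw and the levels of Cst3 were named after their values were seen. Alternatives covered filters, doublets, clustering, scaling, minimums, ratio sizes and the richest cell.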

Additional observations from a re-analysis of the deposited data

Results flagged for a closer look

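Ctsd differed in opposite directions between metformin and control in 2 classes. In conventional dendritic cells, where it was near the C1q share, it stood at 0.563 times control and in cycling lymphocytes at 1.61 times control. The difference between these effects was not tested, since each group is 1 library, and the markers of other cells that moved beside each ratio are given with the results.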

How the results depend on the processing

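All 10 genes stayed highest in a microglia or macrophage class in both libraries, among the classes compared, under every alternative where this was counted. Those were the alternatives of filters, doublets, clustering, scaling without mitochondrial and ribosomal protein genes, the mean over cells and the richest cell. It was not counted for scaling by the median of ratios, ratio sizes, minimums or the alternatives chosen after seeing the data. The count of pairs called depended on the settings: as reported 1 was higher and 2 lower in metformin. It was 0 higher and 6 lower with at least 500 genes and at most 5% mitochondrial UMIs, 0 and 0 without either filter, and 13 and 0 with called doublets kept. γδ T cells had no value under the stricter filter, without filters or with each library clustered on its own. Their Ctsb was not compared there. Some other classes also lacked a value in some alternatives, so those counts rest on fewer pairs. Variable genes drawn from all genes gave 0 higher, each library clustered on its own 6 lower, and the mean over cells 2 higher and 1 lower. A smaller ratio size gave 15 higher and 7 lower, and a ratio size of 2 gave 0 and 0. A minimum of 10 CPM and 5 UMIs gave 4 higher and 4 lower, and no minimum 5 and 4. In dendritic cells and lymphocytes without a C1q UMI, an alternative chosen after seeing the data like that of the named dendritic types, it was 0 and 0, and conventional dendritic, γδ T and cycling cells then had too few cells for a value. The cause was not tested. No ratio called in the results changed direction under an alternative that gave it a value. No paired analysis was possible because each group is 1 library. Counts of under 20 UMIs limit Cd63, Ctsl, Ctsh and Grn in some lymphocyte classes. Levels near the C1q share limit Ctsd and Cd63 in conventional dendritic cells, and Ctsl in those of the control library, at 0.949 times that share.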

Other observations

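Outside the comparisons, the neutrophil class (6 metformin and 44 control cells) had 1113.5 CPM of Ctsd in metformin and 1762.5 CPM in control. In cycling lymphocytes Ctsg, a protease of granulocyte granules, had 0 UMIs in metformin and 183 UMIs in control. Cst7 was highest in Cxcl13/Apoc1 microglia, with 541.5 CPM in metformin and 737.9 CPM in control.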
